A study of Mus musculus with 2 samples.

Results

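The genes of splicing factors and heterogeneous nuclear ribonucleoproteins (hnRNPs) were examined in bone marrow (BM) LSKs, the lineage-negative, c-Kit-positive and Sca1-positive cells that hold the hematopoietic stem and progenitor cells. Genes were taken by symbol, as every name that starts with Snrp, Hnrnp or U2af, or with Srsf, Sf3a, Sf3b or Prpf followed by a digit, which gave 68 of the 34745 genes in the tables. The rule left out 2 pseudogene rows marked -ps, which held at most 1 read in either library. All 68 genes are protein coding in GENCODE M21, and 48 of them carry the KEGG spliceosome term in the deposited tables.

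The cells came from C57BL/6 mice that carry the tet-off transgene pair Scl/tTA-BCR/ABL (BA), in which the Scl-driven tTA switches on BCR/ABL in hematopoietic stem and progenitor cells when the drug doxycycline is taken away. The week-0 group was kept on doxycycline and served as the control, and the week-3 group was sampled 3 weeks after BCR/ABL was induced; both groups carry both transgenes. Each group was 1 RNA-seq library for which the sorted cells of 3 mice had been combined, so the spread between mice could not be measured and no test between the time points was possible. All error statements below are 95% exact (Clopper-Pearson) intervals for counting error only. The transgene acts through the Scl-driven tTA, so not every sorted LSK need express it, and both libraries are averages over all sorted cells.

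Splicing removes introns from pre-mRNA in the spliceosome, which is built from small nuclear ribonucleoproteins (snRNPs). Each of the major snRNPs except U6 carries a ring of Sm proteins, U1 recognises the 5′ splice site, U2 with its SF3A and SF3B subcomplexes binds the branch point, U2AF reads the 3′ splice site, and PRPF proteins drive the later rearrangements. SR proteins mostly favour exon inclusion, whereas hnRNPs coat nascent transcripts and often favour skipping. Genes of this machinery are of interest in LSKs because human SF3B1, SRSF2, U2AF1 and ZRSR2 are recurrently mutated in myeloid neoplasms, and because hnRNP A1, hnRNP K and hnRNP E2 (Pcbp2) have been studied as post-transcriptional regulators in BCR/ABL-expressing cells. The tables hold gene totals, so mutations, exon choice and reads of the BCR/ABL transgene itself were not analysed here.

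The library of week-0 held 6356164 reads on genes and that of week-3 held 3886695, so that a gene with 0 reads could still have reached an RPM of 0.472 or 0.772, which is what 3 reads would give. The 10 most abundant genes took 10.4% and 11.7% of the reads. The sort label was compared with markers. All 10 LSK markers were detected at both times, and their summed FPKM (reads scaled for exon length and for the reads of the library, a level per length) was 298 at week-0 against 132 at week-3, with 9 of 10 lower at week-3. The sort removed lineage-positive cells, yet the summed levels of markers listed for other cells differed strongly between the libraries. The 8 mast cell markers summed to an FPKM of 136 and 3190, with 7 of 8 higher at week-3 and Tpsb2 at 0 at week-0. Gata2, which is in this list and in the LSK list, was the mast cell marker that was lower. The 6 granulocyte markers summed to 1430 and 6944, with all 6 higher, and Elane (5143) and Mpo (988) held most of the week-3 sum. The 7 B lineage markers summed to 295 and 33.9 with 6 of 7 lower, the 5 erythroid markers to 553 and 30.5 with all 5 lower, and the 4 T cell markers to 11.6 and 5.86 with all 4 lower and Cd3e at 0 at week-3. The 10 immediate early genes, a sign of stimulation or handling, took 3.93% of reads at week-0 against 1.14% at week-3. The part of these differences in the values below was not tested, and in such mixtures fewer cells of a type and less RNA per cell cannot be told apart.

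The promoters of 4 genes are shown, chosen after their values were seen, because Snrpg and Hnrnpd were among the members with the largest increases and Srsf5 and Prpf8 among those with the largest decreases, while all 4 hold motifs that occurred in the promoters of the set. Each is the stretch of 250 bases before the start site, 5′ to 3′ in the direction of the gene, from RefSeq on GRCm38.p6. For Snrpg the gene span used elsewhere here begins at chr6:86371304, so most of its stretch lies inside that span. Capitals mark the ETS core CCGGAAG or its reverse complement CTTCCGG, the CRE core TGACGT or ACGTCA, and the E-box CACGTG. The positions are chr6:86371290-86371539 on the + strand, chr5:99978939-99979188 on the - strand, chr12:80945249-80945498 on the + strand and chr11:75486527-75486776 on the + strand.
Snrpg: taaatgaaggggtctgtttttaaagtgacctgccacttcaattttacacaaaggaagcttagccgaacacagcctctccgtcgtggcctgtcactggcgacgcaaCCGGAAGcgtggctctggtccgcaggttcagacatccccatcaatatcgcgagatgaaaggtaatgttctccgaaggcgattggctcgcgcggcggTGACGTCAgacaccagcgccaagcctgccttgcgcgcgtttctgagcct
Hnrnpd: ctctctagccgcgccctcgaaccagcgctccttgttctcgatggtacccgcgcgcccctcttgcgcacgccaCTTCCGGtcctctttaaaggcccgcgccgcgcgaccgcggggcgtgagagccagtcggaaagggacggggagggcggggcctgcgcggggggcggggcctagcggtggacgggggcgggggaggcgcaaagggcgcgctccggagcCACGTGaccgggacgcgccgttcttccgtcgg
Srsf5: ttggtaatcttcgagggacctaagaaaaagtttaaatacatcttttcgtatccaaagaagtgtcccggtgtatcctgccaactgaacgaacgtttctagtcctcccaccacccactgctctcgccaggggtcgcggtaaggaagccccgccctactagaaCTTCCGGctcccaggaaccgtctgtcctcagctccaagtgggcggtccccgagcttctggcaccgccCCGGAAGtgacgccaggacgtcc
Prpf8: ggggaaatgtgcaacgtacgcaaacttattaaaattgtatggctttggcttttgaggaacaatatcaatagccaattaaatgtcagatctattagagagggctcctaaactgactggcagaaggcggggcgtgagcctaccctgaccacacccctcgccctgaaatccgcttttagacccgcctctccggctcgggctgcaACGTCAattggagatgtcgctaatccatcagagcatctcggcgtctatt

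The Snrpg promoter held 1 ETS core and 2 CRE cores that overlap each other on opposite strands. The Hnrnpd promoter held 1 ETS core and 1 E-box, the Srsf5 promoter 2 ETS cores and the Prpf8 promoter 1 CRE core. The windows searched ran from 250 bases before to 50 bases after the start, on both strands, and 59 of the 68 genes had at least 1. Some genes, such as Hnrnpf and Srsf4, had several windows. A gene was counted if any of its windows held the motif, so genes with more windows had more room for a match. ETS cores were found in 20 of these 59 genes (33.9%), against 21.02% of the 8848 genes with a promoter and at least 20 reads and 9.93% of all 27025 genes with a promoter. CRE cores were found in 16 (27.1%, against 14.0% and 8.37%), and E-boxes in 9 (15.3%, against 11.9% and 8.09%). The GC box GGGCGG was found in 67.8% of the members with a promoter and 69.0% of the genes with at least 20 reads. CCAAT was found in 50.8% and 42.9%, TATAAA in 11.9% and 8.44%, AAGATGGCG in 3.39% and 3.82%, and TGANTCA in 5.08% and 6.07%. The promoters of the set had a median GC content of 60.7%, close to the 62.0% of genes with at least 20 reads. The median log2 ratio was 0.10 with an ETS core and 0.21 without, 0.34 with a CRE core and 0.09 without, and 0.09 with an E-box and 0.17 without. These matches are a description of letters, and the highest member, Hnrnpa0, held none of the 3 motifs marked above.

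To learn how the splicing genes stood after BCR/ABL was induced, the FPKM of each gene at week-3 was divided by that at week-0. The set as a whole changed little. Reads on the 68 genes made up 1.30% of the week-0 library (1.29% to 1.31%) and 1.38% of the week-3 library (1.37% to 1.39%). At least 20 reads over both libraries were found for 66 of the 68 genes and for 12192 genes in all, and ratios are given for these. Only Hnrnpa0 was at least 2-fold higher at week-3, where 10.6% of all tested genes were, and only Srsf4 was at most 0.5-fold, where 15.6% of all tested genes were. At limits of 1.5-fold and 0.67-fold, 11 members were higher and 8 lower, beside 23.7% and 24.8% of all tested genes. By the counting interval alone, 36 members lay above no change (34.0% of all tested genes did) and 13 lay below it (28.5% did), while 17 spanned it. Many reads make an interval narrow, and among genes with at least 1000 reads 56.4% of the 39 members and 49.1% of all genes lay above no change, and 23.1% and 35.5% lay below it. These splits depend on the scaling, since with TMM scaling 26 members lay above and 18 below, beside 28.6% and 32.8% of all tested genes. Under that scaling 9 members passed 1.5-fold upward and 11 passed 0.67-fold downward, beside 19.2% and 28.02% of all tested genes.

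The median log2 ratio of the members was 0.19, with the middle 50% between -0.09 and 0.47. Over all tested genes the median was 0.07, with the middle 50% between -0.57 and 0.56. The standard deviation of the log2 ratios was 0.50 over the members and 1.18 over all tested genes. Genes with many reads have less counting error, so the spread was also compared at higher counts. Among genes with at least 1000 reads, the standard deviation was 0.44 over 39 members and 1.04 over 1952 genes, and 0 of these 39 members passed either 2-fold limit, against 4.56% of such genes upward and 12.0% downward. TMM scaling lowers every log2 ratio by 0.11 and median-of-ratios scaling by 0.09, so that the median of all genes becomes -0.04 or -0.02 and that of the members 0.08 or 0.10. Each scaling shifts all genes alike, so the gap of 0.12 between the medians is the same by construction. The gap was smaller at higher counts, with medians of 0.19 over the members and 0.10 over all genes with at least 100 reads, and of 0.13 and 0.12 with at least 1000 reads.

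**Figure D1:**
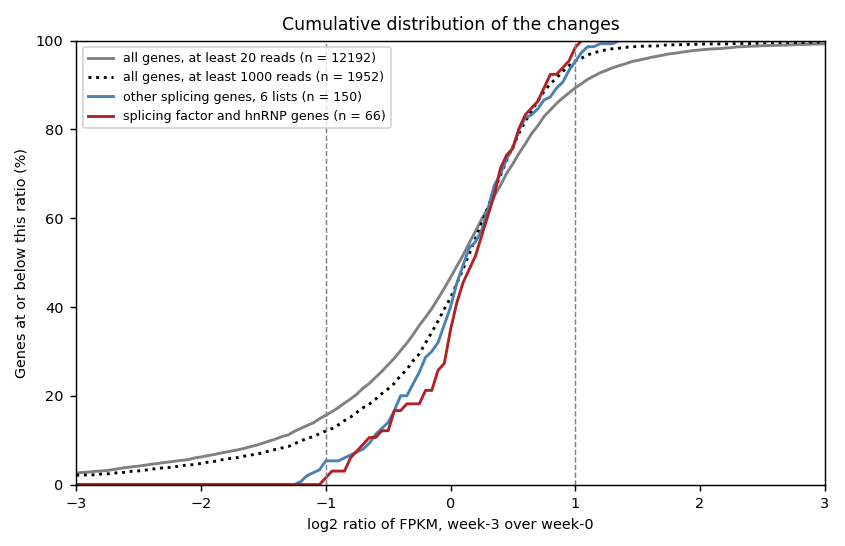
Cumulative percentage of genes (vertical axis) at or below each log2 ratio of FPKM, week-3 over week-0 (horizontal axis), with dashed lines at 2-fold; values beyond 3 in either direction are not drawn. The curve of the 66 splicing factor and hnRNP genes is steeper than those of the 12192 genes with at least 20 reads and the 1952 genes with at least 1000 reads, and its lower tail ends near -1.

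SR proteins, which bind exonic enhancers and recruit the splicing machinery, moved in both directions. Of 10 SR genes with at least 20 reads, 7 had intervals above no change, 3 had intervals below it and none spanned it. Of all tested genes 34.0% lay above no change and 28.5% below it, or 49.1% and 35.5% of those with at least 1000 reads. Under TMM scaling 5 SR genes lay above and 3 below, beside 28.6% and 32.8% of all tested genes. The median log2 ratio of the SR genes was 0.29. Srsf2 (chr11:116849901-116853094), whose protein binds exonic enhancers, had 1805 reads at week-0 against 1995 at week-3, from an FPKM of 48.3 to 87.3. Its log2 ratio was 0.85 (0.76 to 0.95), the highest of the SR genes. Part of this gene, 25.3% of its exon bases, lies over exons of Mettl23 and Mfsd11 on the other strand, and the library kit does not mark strand. Mettl23 had 331 and 181 reads and Mfsd11 had 75 and 67, and their part in the value of Srsf2 was not tested. Srsf9 (chr5:115327177-115333080) went from an FPKM of 15.6 to 25.7 (201 and 203 reads), a log2 ratio of 0.72 (0.44 to 1.01). Srsf10, a splicing repressor when dephosphorylated, had nearly the same change, from an FPKM of 9.73 to 16.0 (0.72, 0.56 to 0.88). Srsf7, the SR gene with the highest mean FPKM, went from 180 to 233 (0.37, 0.29 to 0.46), and Srsf11 from 15.5 to 20.1 (0.37, 0.27 to 0.48).

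Srsf4 (chr4:131873617-131901706) was at the other end, with 165 reads at week-0 against 49 at week-3, an FPKM of 5.64 and 2.74. Its log2 ratio was -1.04 (-1.53 to -0.57), the lowest of all members, although 43.0% of its exon bases lie over those of Gm12992, which had 6 and 2 reads. Srsf5 (chr12:80945504-80950507) was the SR gene with the most reads, 7139 at week-0 against 2706 at week-3. Its FPKM went from 105 to 65.0, a log2 ratio of -0.69 (-0.75 to -0.63). Srsf6 (chr2:162931528-162937121) went from 68.4 to 48.9 (3196 and 1396 reads), a log2 ratio of -0.49 (-0.58 to -0.39). Srsf1, an SR protein known as an oncogene when overexpressed, went from an FPKM of 7.57 to 8.77 (0.21, 0.02 to 0.40). Srsf3, which also takes part in mRNA export, went from 72.3 to 76.8 (0.09, 0.02 to 0.16), and both it and Srsf1 would span no change once 0.11 is taken off for TMM scaling. Srsf12 had 5 reads at week-0 against 0 at week-3, too few for a ratio. Because increases and decreases met, the SR genes together took 0.350% of reads at week-0 against 0.349% at week-3.

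**Figure D2:**
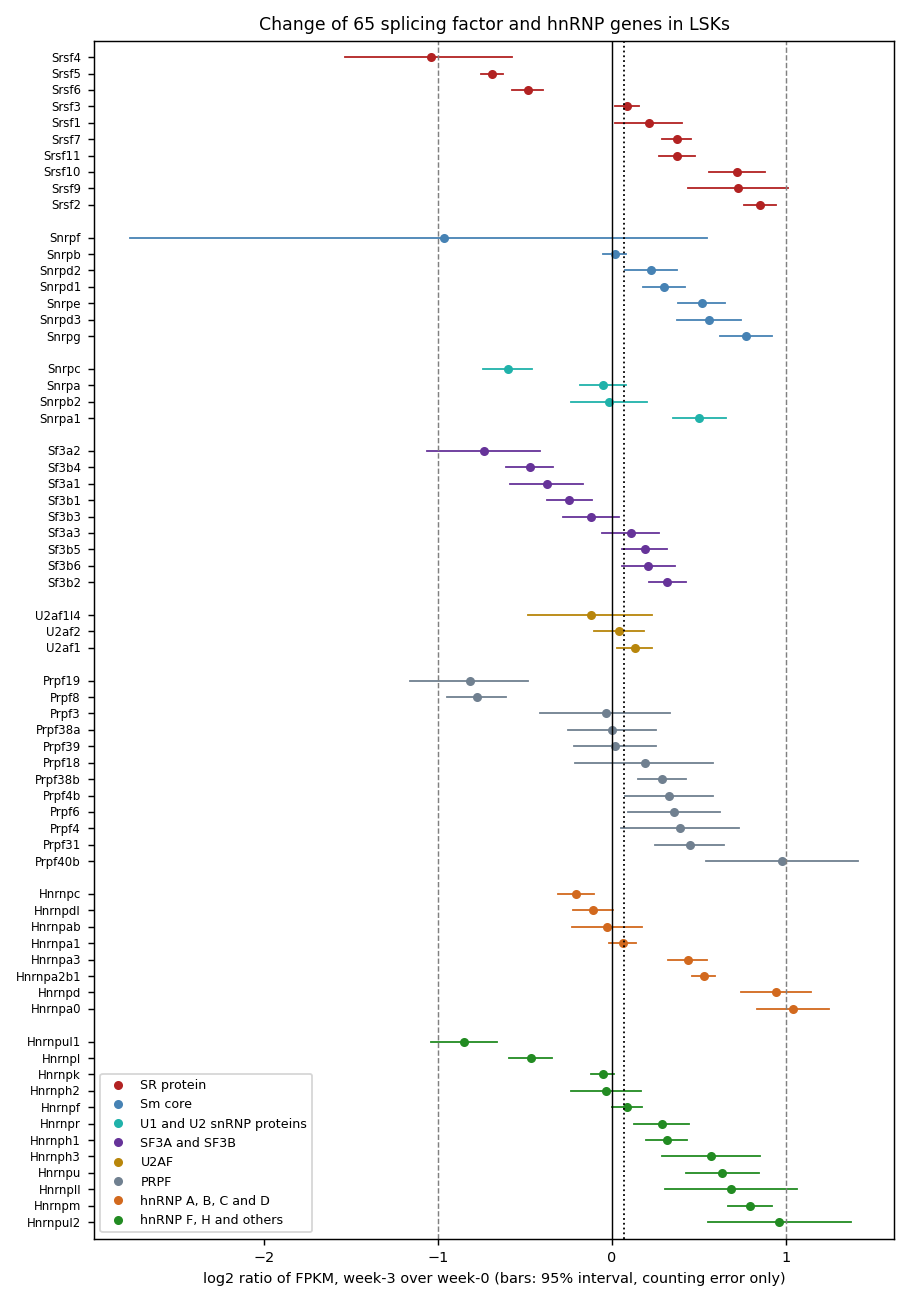
Log2 ratio of FPKM, week-3 over week-0, of 65 of the 66 genes with at least 20 reads, ordered within 8 role groups (colours); bars are 95% counting intervals, dashed lines mark 2-fold and the dotted line marks the median of all genes (0.07). Hnrnpa0 at 1.04 and Srsf4 at -1.04 are the ends of the range, the SF3A and SF3B genes have a median of -0.12 against 0.25 and 0.30 in the hnRNP groups, and the wide bar of Snrpf comes from 21 reads in all.

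The Sm core proteins form the ring on which the snRNPs are assembled. Of 7 tested Sm genes, 5 had intervals above no change (34.0% of all tested genes did) and none below it (28.5% did). Their median log2 ratio was 0.30, and the counts were 4 and 1 under TMM scaling, beside 28.6% and 32.8% of all tested genes. Snrpg (chr6:86371304-86379328) was the highest, with 705 reads at week-0 against 736 at week-3, an FPKM of 50.1 and 85.5 and a log2 ratio of 0.77 (0.62 to 0.92). Snrpd3 went from an FPKM of 22.02 to 32.5 (0.56, 0.38 to 0.74), Snrpe from 58.6 to 83.9 (0.52, 0.38 to 0.65) and Snrpd2 from 52.2 to 61.0 (0.22, 0.07 to 0.37). Snrpd1, the Sm gene with the highest mean FPKM, went from 243 to 299 (0.30, 0.18 to 0.42). Snrpb was level, at 243 and 246 (0.02, -0.05 to 0.08). The Sm genes together took 0.145% of reads at week-0 (0.142% to 0.148%) and 0.171% at week-3 (0.167% to 0.176%).

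Snrpf stood apart from its ring partners. It had 16 reads at week-0 against 5 at week-3, an FPKM of 2.92 and 1.49, and its interval of -2.77 to 0.55 spanned no change. Exons of Ccdc38 and 4933408J17Rik on the other strand cover 85.4% of its exon bases, and those genes had 6 and 9 reads at week-0 against 0 at week-3. How the counting treated reads that fall on 2 genes is not given in the sources used here, and its part in the low value of Snrpf was not tested. Snrpn, an imprinted gene whose protein resembles that of Snrpb, had 0 reads at week-0 against 16 at week-3. It stayed under 20 reads, so no ratio is given, and 34.1% of its exon bases are shared with neighbouring genes.

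Among the 4 U1 and U2 proteins, Snrpc and Snrpa1 moved in opposite directions. Snrpc (chr17:27839974-27851968), the U1 protein that stabilises pairing with the 5′ splice site, had 1450 reads at week-0 against 585 at week-3, an FPKM of 33.4 and 22.01 and a log2 ratio of -0.60 (-0.74 to -0.46). Snrpa1, which is part of U2, went from 25.2 to 35.7 (0.50, 0.35 to 0.65). Its U2 partner Snrpb2 was at 22.2 and 21.9 (-0.02, -0.24 to 0.20). Snrpa, the U1 protein with the highest mean FPKM of the group, was at 44.3 and 42.8 (-0.05, -0.18 to 0.08).

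SF3A and SF3B, the parts of U2 that hold the branch point, had the lowest median of the 8 role groups, -0.12 over 9 genes. Of these, 4 had intervals below no change and 3 above it, beside 28.5% and 34.0% of all tested genes. Under TMM scaling 5 lay below and 1 above, beside 32.8% and 28.6% of all tested genes. Sf3a2 (chr10:80798198-80804924) had 302 reads at week-0 against 111 at week-3, an FPKM of 15.9 and 9.53 and a log2 ratio of -0.73 (-1.06 to -0.42). Exons of Plekhj1, which had 636 and 375 reads, cover 16.1% of its exon bases, and their part in this value was not tested. Sf3a1 was also lower, at 13.8 and 10.6 (-0.38, -0.59 to -0.17), and Sf3a3 was at 37.2 and 40.1 (0.11, -0.06 to 0.27). Within SF3B, Sf3b4 went from 101 to 72.5 (-0.47, -0.61 to -0.34). Sf3b1 (chr1:54985169-55027481), the branch point subunit mutated in human disease, had 1447 and 747 reads, an FPKM of 13.6 and 11.5 and a log2 ratio of -0.24 (-0.37 to -0.12). Sf3b3 was at 31.8 and 29.3 (-0.12, -0.28 to 0.04). The other 3 were slightly higher. Sf3b2 went from 77.9 to 97.2 (0.32, 0.21 to 0.43), Sf3b5 from 48.5 to 55.3 (0.19, 0.06 to 0.32) and Sf3b6, the member of the group with the highest mean FPKM, from 120.6 to 139.6 (0.21, 0.06 to 0.36).

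U2AF was nearly level. U2af1 (chr17:31647082-31658754), the subunit that contacts the last bases of the intron, had 1992 and 1335 reads, an FPKM of 322 and 353 and a log2 ratio of 0.13 (0.03 to 0.23), which would span no change under TMM scaling. U2af2, which binds the polypyrimidine tract, was at 52.9 and 54.4 (0.04, -0.10 to 0.18). U2af1l4, a paralog of U2af1, was at 1.997 and 1.84 (-0.12, -0.48 to 0.23), with 66.1% of its exon bases shared with other genes, Psenen among them. The median of the 3 genes was 0.04, which turns to -0.07 under TMM and -0.05 under median-of-ratios scaling.

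**Figure D3:**
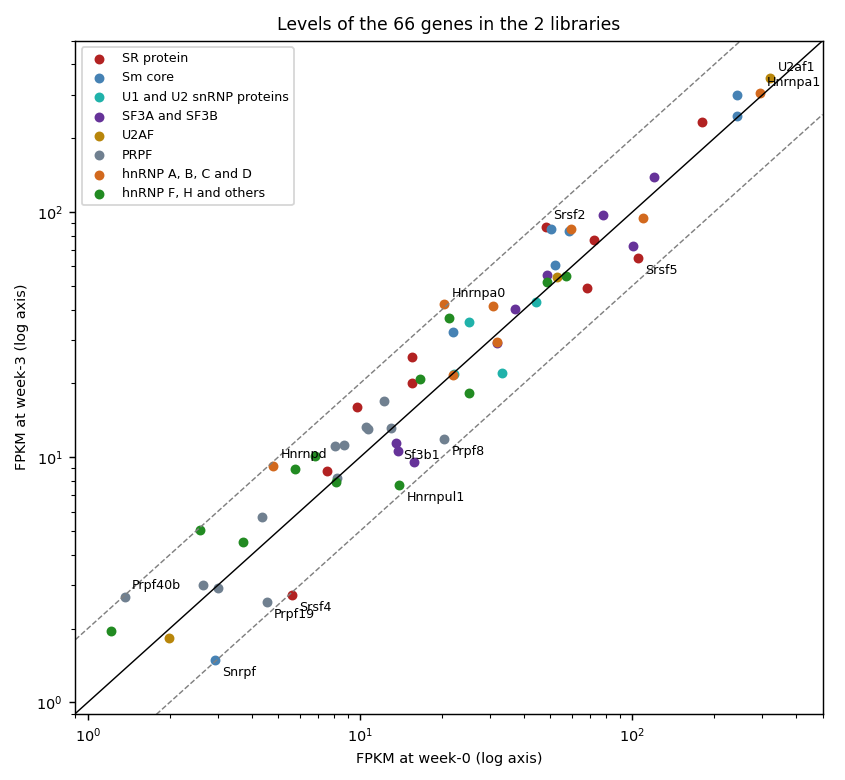
FPKM at week-3 against FPKM at week-0, both on log axes, for the 66 genes, coloured by role; the solid line marks no change and the dashed lines 2-fold. The points follow the solid line from U2af1 (322 and 353) down to genes near an FPKM of 1, and Hnrnpa0 and Srsf4 are the points that cross a dashed line.

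Of the PRPF genes, 7 of 13 had intervals above no change and 2 below it, beside 34.0% and 28.5% of all tested genes. Their median log2 ratio was 0.29. The counts were 4 above and 2 below under TMM scaling, beside 28.6% and 32.8% of all tested genes. The 2 genes with intervals below no change were Prpf8 and Prpf19. Prpf8 (chr11:75486816-75509449), the U5 protein that cradles the catalytic centre and the PRPF gene with the highest mean FPKM, had 1107 reads at week-0 against 395 at week-3, an FPKM of 20.4 and 11.9 and a log2 ratio of -0.78 (-0.95 to -0.61). Prpf19 (chr19:10895231-10909559), a ubiquitin ligase that acts as the spliceosome is activated, had 285 and 99 reads, an FPKM of 4.54 and 2.58 and a log2 ratio of -0.82 (-1.16 to -0.48). Prpf40b (chr15:99295087-99317018), a U1-associated protein, lay at the other end with 83 and 100 reads, an FPKM of 1.37 and 2.70 and a log2 ratio of 0.98 (0.54 to 1.42). The U4/U6 and tri-snRNP genes Prpf31, Prpf4 and Prpf6 had log2 ratios of 0.45, 0.39 and 0.36, and Prpf3 was at -0.04 (-0.42 to 0.34). The kinase gene Prpf4b was at 0.33, Prpf38b at 0.29 and Prpf18 at 0.19. Prpf39 and Prpf38a were level, at 0.02 and 0.00.

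The hnRNPs A, B, C and D had a median log2 ratio of 0.25 over 8 genes. Of these, 4 had intervals above no change and 1 below it, beside 34.0% and 28.5% of all tested genes. The counts were 4 and 2 under TMM scaling, beside 28.6% and 32.8% of all tested genes. Hnrnpa0 (chr13:58125879-58128556), an intronless gene whose protein binds AU-rich elements, had 347 reads at week-0 against 437 at week-3. Its FPKM went from 20.4 to 42.0, a log2 ratio of 1.04 (0.84 to 1.25), the highest of all members with at least 20 reads, and TMM scaling takes it below 2-fold. Hnrnpd (chr5:99955935-99978938), which directs the decay of AU-rich mRNAs, had 385 and 453 reads, an FPKM of 4.80 and 9.24 and a log2 ratio of 0.94 (0.75 to 1.14). Hnrnpa2b1 went from 59.4 to 85.7 (0.53, 0.46 to 0.59) and Hnrnpa3 from 30.7 to 41.6 (0.44, 0.32 to 0.55). Hnrnpa1 (chr15:103240432-103244955), the hnRNP gene with the highest mean FPKM, had 3585 and 2287 reads, an FPKM of 294 and 307 and a log2 ratio of 0.06 (-0.02 to 0.14), which turns to -0.05 under TMM scaling. Processed copies of this gene are common in mammalian genomes, and how reads shared with them were counted is not given in the sources used here. Hnrnpab was at -0.03, Hnrnpdl at -0.11 (-0.22 to 0.01) and Hnrnpc, which measures transcript length and covers uridine tracts, at -0.21 (-0.31 to -0.10). This group took 0.224% of reads at week-0 (0.220% to 0.227%) and 0.267% at week-3 (0.262% to 0.272%).

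Of the other 12 hnRNP genes, 8 had intervals above no change and 2 below it, beside 34.0% and 28.5% of all tested genes. Their median log2 ratio was 0.30, and the counts were 7 and 3 under TMM scaling, beside 28.6% and 32.8% of all tested genes. The hnRNP U family was split. Hnrnpul2 (chr19:8819401-8834142) had 94 and 112 reads, an FPKM of 2.58 and 5.03 and a log2 ratio of 0.96 (0.55 to 1.37), and Hnrnpu, which binds nuclear RNA and chromatin, was at 0.64 (0.42 to 0.85). Their relative Hnrnpul1 (chr7:25721165-25754757) had 922 reads at week-0 against 313 at week-3, an FPKM of 13.9 and 7.73 and a log2 ratio of -0.85 (-1.04 to -0.66). Another opposite pair was Hnrnpll, at 0.69 (0.31 to 1.06), which controls Cd45 exon choice in lymphocytes, and its paralog Hnrnpl, with 1778 and 787 reads, at -0.47 (-0.59 to -0.34). Hnrnpm (chr17:33646233-33686860) had 969 and 1028 reads, an FPKM of 21.3 and 36.9 and a log2 ratio of 0.79 (0.67 to 0.92). In the hnRNP F and H family, Hnrnph3 was at 0.57, Hnrnph1 at 0.32, Hnrnpf at 0.09 and Hnrnph2 at -0.03. Hnrnpr was at 0.29 (0.13 to 0.45). Hnrnpk (chr13:58391142-58403343), a poly(C)-binding protein, had 4918 and 2900 reads, an FPKM of 56.9 and 54.9 and a log2 ratio of -0.05 (-0.12 to 0.01).

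Levels were compared between genes per length, and the length used matters here. The exon length behind each FPKM, worked out from the deposited reads and FPKM, matched the sum of all distinct annotated exons of GENCODE M21 within 1 base for 47 of 68 members, with bases shared by several exons counted again each time. For 11 members it was longer than the gene itself, as for Srsf5, where it was 10708 bases in a gene of 5004. A length that counts shared bases again makes FPKM understate the level of a gene. For some other members the length was shorter than the merged exons, as for U2af1 (974 against 2598 bases), and FPKM was then the higher value. The deposited gene span was identical to that of M21 for 52 of 68 members, and U2af1 is not among them. For members with another span, reads and merged exons may belong to different gene models. The ratios between the libraries do not depend on the length. Levels were therefore recomputed in the same unit on merged exons, with each base counted once. On this scale Srsf5 stood at 282 at week-0 against 175 at week-3, against an FPKM of 105 and 65.0, and Hnrnpk at 120 and 115 against 56.9 and 54.9. U2af1, the highest member by FPKM, stood at 121 and 132 on merged exons, and Snrpb was then the highest, at 388 and 392.

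Subunits that sit in complexes in equal numbers were not equal in RNA level. In the Sm ring the highest FPKM was 83.2 times the lowest at week-0 and 200.4 times at week-3, a range set by Snrpf, and without Snrpf it was 11.04 and 9.22 times. On merged exons the range without Snrpf was 16.4 and 11.3 times. In SF3B the range was 8.87 times at week-0 and 12.2 times at week-3 by FPKM, and 8.75 and 6.85 times on merged exons, so whether it widened depends on the length scale. In SF3A it was 2.70 and 4.21 times by FPKM and 2.83 and 4.30 times on merged exons. U2af1 exceeded its partner U2af2 by 6.09 and 6.49 times in FPKM, and by 3.08 and 3.28 times on merged exons. U2af1, U2af2, Snrpd1, Snrpd3, Sf3b2, Sf3b3 and Sf3b6 have another gene span in M21 than in the deposited data. Their merged levels may join reads and lengths of different gene models, and the part of this in the ranges was not tested.

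**Figure D4:**
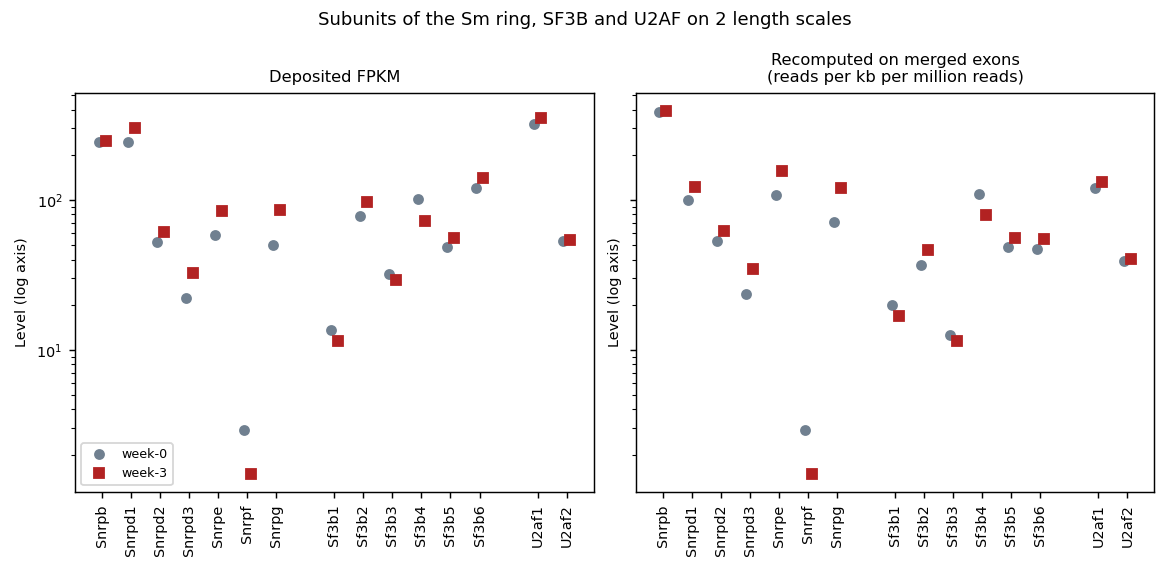
Levels (log axis) of the Sm ring, SF3B and U2AF genes at week-0 (circles) and week-3 (squares), as deposited FPKM on the left and as levels recomputed on merged exons on the right. Snrpf lies far below its partners on both scales. U2af1 at week-0 is at 322 on the left and at 121 on the right. Its merged exons in M21 (2598 bases) are longer than the length behind its FPKM (974 bases).

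The rest of the splicing pathway, 151 genes in 6 lists of which 150 had at least 20 reads, was also close to level. These genes took 2.03% of reads at week-0 against 2.09% at week-3, 7 were at least 2-fold higher (4.67%, against 10.6% of all tested genes) and 8 at most 0.5-fold (5.33%, against 15.6%), and their log2 ratios had a median of 0.12 and a standard deviation of 0.56. Of all tested genes 34.0% had intervals above no change and 28.5% below it (28.6% and 32.8% under TMM scaling). Other snRNP proteins had a median of 0.31 over 24 genes, with 14 intervals above no change and 6 below it (11 and 6 under TMM scaling). Lsm7, of the ring on U6, went from an FPKM of 157 to 312 (0.99, 0.81 to 1.17), and Zrsr2, a U2AF relative that serves minor introns, from 6.69 to 3.33 (-1.01, -1.33 to -0.70). The list of the SMN complex, which loads Sm rings onto snRNA, and of related genes had a median of 0.30 over 14 genes. Of these, 7 had intervals above no change and 1 below it (5 and 1 under TMM scaling). Gemin6 went from 11.4 to 28.1 (1.31, 0.94 to 1.68), and Smndc1 from 32.7 to 23.9 (-0.46, -0.71 to -0.21).

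Spliceosome helicases and step factors had a median of 0.04 over 32 genes, which turns to -0.07 under TMM scaling. Of these, 13 had intervals above no change and 7 below it, or 8 and 10 under that scaling. Of all tested genes 34.0% lay above no change and 28.5% below it (28.6% and 32.8% under TMM scaling). The helicase gene Ddx39 went from 35.0 to 71.6 (1.04, 0.93 to 1.14), and Syf2 from 65.8 to 30.8 (-1.10, -1.28 to -0.92). SR-related proteins and the SR and CLK kinases, which phosphorylate SR proteins, had a median of 0.01 over 23 genes (-0.10 under TMM scaling), with 11 intervals above and 10 below, or 10 and 11 under that scaling. Clk2 went from 1.45 to 3.03 (1.07, 0.65 to 1.495) and Scaf8 from 14.0 to 6.18 (-1.18, -1.49 to -0.88). The exon junction complex and nonsense-mediated decay genes had a median of 0.06 over 13 genes (-0.06 under TMM scaling), with 4 intervals on each side (3 above and 5 below under that scaling) and Upf1 the highest at 0.46 (0.21 to 0.71).

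Other regulators of exon choice had a median of 0.04 over 44 genes (-0.07 under TMM scaling). Of these, 14 had intervals above no change (31.8%, against 34.0% of all tested genes) and 11 below it (25%, against 28.5%). Under TMM scaling 11 lay above and 16 below, beside 28.6% and 32.8% of all tested genes. At most 0.5-fold were 5 of the 44 (11.4%, against 15.6% of all tested genes). Pcbp2, which encodes hnRNP E2 but falls outside the symbol rule, had 552 reads at week-0 against 155 at week-3, an FPKM of 30.3 and 13.9 and a log2 ratio of -1.12 (-1.39 to -0.86). Pcbp3 went from 4.98 to 2.16 (-1.21, -1.72 to -0.72). Ptbp1, the polypyrimidine tract binding protein also known as hnRNP I, was named after its value was seen, with 1901 and 516 reads, an FPKM of 27.2 and 12.1 and a log2 ratio of -1.17 (-1.31 to -1.03). Tardbp went from 2.29 to 4.69 (1.03, 0.85 to 1.21). So hnRNP genes with other symbols, Pcbp2 and Ptbp1, were lower by more than any gene named Hnrnp.

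**Figure D5:**
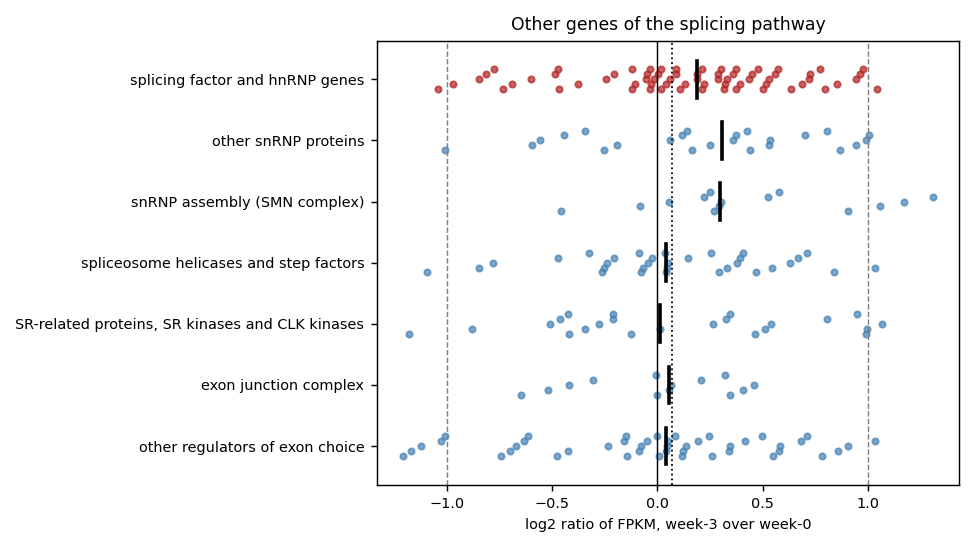
Log2 ratio of FPKM, week-3 over week-0, of each gene (points, spread vertically only for legibility) in the splicing factor and hnRNP set and in 6 lists of other splicing genes; black bars are medians, dashed lines mark 2-fold and the dotted line the median of all genes. The medians run from 0.01 in SR-related proteins and kinases to 0.31 in other snRNP proteins. Left of the lower 2-fold line lie 5 regulators of exon choice (11.4%, against 15.6% of all tested genes).

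Neither length nor level ordered the changes among the members. Across the 66 genes, which share their 2 libraries, Spearman's rho of the log2 ratio was 0.00 with exon length and -0.02 with mean FPKM, and across all tested genes it was -0.07 and 0.11. The members lie on 18 chromosomes, 9 of them on chromosome 7, and 39 are on the + strand. Exons of 27 members overlap those of another gene, in 11 cases over more than 10% of their exon bases. Beside the genes named with an overlap above, these are Hnrnpab (29.1%), Hnrnpf (26.5%), Prpf31 (18.1%), Hnrnpm (14.7%) and Snrpa (11.03%). Without these 27 genes, 40 members with at least 20 reads had a median log2 ratio of 0.16. Of these, 6 were at least 1.5-fold higher (15%) and 5 at most 0.67-fold (12.5%). The shares of all tested genes, not filtered for overlap, were 23.7% and 24.8%.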

How the data were processed

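RNA-seq of BM LSKs was analysed in 2 libraries, week-0 and week-3. The SMARTer Ultra Low Input kit, which does not mark strand, had been used. After trimming, the authors aligned reads to GRCm38 using TopHat 2.0.9. They deposited counts per gene, which are whole reads without normalization, and FPKM values, for which the authors divided the reads by exon length and by the total on genes. The counting tool and annotation release are not given in the sources used here.

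Tables were joined by Ensembl identifier. The depth was 6356164 and 3886695 reads. Genes with at least 20 reads summed over both libraries were kept (12192), a library at 0 reads was set to 3 reads, and ratios were FPKM at week-3 over week-0. With 1 library per time point no p-value was computed. Intervals at 95% are Clopper-Pearson intervals of the share of reads in week-3, turned into a ratio. Positions are those of the deposited tables, and strand, exons and overlaps come from GENCODE M21. Promoters come from RefSeq (GRCm38.p6), and 9 members without an entry were left out of the motif search.

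The members, role groups and lists were chosen with earlier results of these data known. Named by rule were the member with the highest mean FPKM in each of 8 role groups, the 8 highest and 8 lowest ratios among members with at least 100 reads, Sf3b1, Srsf2, U2af1, Hnrnpa1, Hnrnpk and Srsf1, and among the other splicing genes Pcbp2 and the highest and lowest ratio of each list with at least 100 reads. A few genes that the rule, the lists or the set hold are counted but not reported here by name. Alternatives were TMM scaling (edgeR 4.0.16), median-of-ratios scaling (DESeq2 1.42.0, R 4.3.3), other filters, pseudocounts of 1 and 0.1, and leaving out genes with overlapping exons, the last chosen after seeing the data. The work was done in Python 3.11.15 (scipy 1.17.1, pandas 2.3.3, numpy 2.4.6, with matplotlib 3.10.9 for plots), and the scripts were tested on simulated data.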

Additional observations from a re-analysis of the deposited data

How the results depend on the processing

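The median of the members kept its direction under every alternative that was run, from 0.08 with TMM scaling to 0.19. No replicate could be left out with 1 library per time point. No paired analysis was possible because each group is a single library. Under TMM scaling 0 members were at least 2-fold higher and 2 at most 0.5-fold, beside 8.51% and 17.5% of all tested genes. Under median-of-ratios scaling the numbers were 0 and 2, beside 8.83% and 17.2%. With log2(FPKM + 1), 0 members were at most 0.5-fold, beside 8.11% of all tested genes. Without members that overlap another gene, 0 were at most 0.5-fold, 6 were at least 1.5-fold and 5 at most 0.67-fold, with fewer genes tested. The shares of all tested genes, not filtered for overlap, were 15.6%, 23.7% and 24.8%. Medians near 0 turned under TMM and median-of-ratios scaling, which shift all ratios by one amount: U2AF to -0.072 and -0.049, helicases and step factors to -0.069 and -0.046, SR-related proteins and kinases to -0.10 and -0.079, the exon junction complex to -0.056 and -0.033, and other regulators of exon choice to -0.070 and -0.047. The median of hnRNPs A, B, C and D became 0.14 with TMM scaling. Hnrnpa1 turned to -0.051 and -0.028. With the genes holding the most reads left out of the total, the members took 1.47% of the week-0 reads and 1.58% of those of week-3. Depth limits Snrpf, Snrpn and Srsf12, which had too few reads for a narrow interval.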
